A study of Mus musculus with 8 samples.

Results

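The class described here is the shallower of the 2 acinar classes in a droplet RNA profile of mouse islets. Its members are the droplets whose deposited cell type is Acinar_cells_1, and they number 458 of the 6959 droplets in the series, with 161 of 3776 in the vehicle library and 297 of 3183 in the FAKi library. The other acinar class, deposited as 2_Acinar_cells, holds 86 and 114 droplets. The islets came from wild-type mice aged 6 to 12 weeks at the start, which received either vehicle or the focal adhesion kinase inhibitor PF562271 (FAKi) by mouth at 50 mg/kg, 2 times a day for 3 weeks. They were isolated 10 days after the last dose. Islets of 5 mice were pooled into 1 library per treatment and sequenced in 4 lanes, so each treatment is 1 sample and no comparison below has a replicate check. The islets were freed with collagenase and picked by hand. The authors reason that the acinar cells likely lay next to the islets and were carried along with them.

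Acinar cells make and store digestive enzymes, and transcripts of a small number of enzyme genes fill most of their mRNA. The genes that every cell needs, for ribosomes, the cytoskeleton, glycolysis and protein folding, therefore take a small share of an acinar transcriptome. Mitochondrial transcripts are made inside the organelle, and long noncoding RNAs such as Malat1 stay in the nucleus. The shares of these RNAs are given below as descriptions. Which compartments of a cell a droplet holds was not tested. The sections below follow these compartments, and then the transcripts of other cell types and of blood.

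Of the 6 genes listed as markers of the class, 4 were found in nearly every droplet. Try4, a trypsin, stood at 69359 CPM (a gene's UMIs over the summed UMIs of the class, scaled to a total of 1000000) in vehicle and 45669 in FAKi, with a median of 119 and 53 UMIs per droplet. Pnlip, the pancreatic lipase, stood at 39385 and 34904 CPM with a median of 69 and 41 UMIs. Cela3b had a median of 54 and 25 UMIs, and Cela2a of 46 and 22. These last 2 genes encode elastases. These genes were listed as markers of the class, so their level is a description. Ins2, an insulin gene of β cells, was found in 100% of the same droplets with a median of 129 and 175 UMIs, above those of Try4. Transcripts of Pnlip were also found in 42.1% and 69.5% of the endothelial and immune droplets, and those of Try4 in 51.2% and 70.6%. With every droplet thinned to 500 UMIs, Try4 was found in 98.1% and 100% of the class against 15.7% and 32.1% of the endothelial and immune droplets. Against 2_Acinar_cells most acinar genes were lower in the class, 54 of 65 in vehicle and 58 of 64 in FAKi. Over all genes with a UMI, 3610 of 11737 and 2845 of 12535 were lower.

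The other markers, Prss3 and Gm10334, did not describe the typical droplet. Prss3 was found in 34.2% and 13.5% of droplets and Gm10334 in 9.32% and 7.74%, and both had a median of 0 UMIs in both libraries. A single droplet held 47.5% of the Prss3 UMIs in vehicle and 26.4% in FAKi. For Gm10334 the leading droplet held 47.4% and 26.3%. Both are members of the trypsin family, and they lie on chromosome 6 of GRCm38 with Try4 (Prss3 at 41373814 to 41377678, Gm10334 at 41442216 to 41446145 and Try4 at 41302269 to 41305532). The last 300 bases of their transcripts, the end that this assay reads, were 93.4% identical between Gm10334 and Prss1, 83.0% between Gm10334 and Try4 and 68.0% between Prss3 and Try4. The split of trypsin reads among these genes is therefore uncertain, and most of all for Gm10334.

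The droplets of the class were shallow. The median droplet held 1480 UMIs from 248 genes in vehicle and 1140 UMIs from 229 genes in FAKi, against 7931 UMIs and 740.5 genes, and 7280.5 UMIs and 678.5 genes, in 2_Acinar_cells. The deposited droplets start at 201 genes, and 73.9% and 70.0% of the class lay under 300 genes. These were 83.2% of all such droplets in each library. The class also had a deep tail. There were 4 vehicle and 13 FAKi droplets with 1000 genes or more, and they held 20.9% and 40.5% of all UMIs of the class. Pooled values in the FAKi library therefore rest to a greater extent on a few deep droplets, and the median droplet is given beside the pooled share of the main lists below. Of the class, 3 droplets in each library were called doublets, and 1 droplet carried a barcode that both libraries share. The total was 352904 and 734795 UMIs. A count of 0 over the class allows up to 8.50 CPM in vehicle and 4.08 CPM in FAKi. It allows a UMI to be found in up to 1.86% and 1.01% of droplets at this depth. That is no limit on the share of droplets that hold the transcript. All intervals below are exact 95% intervals and cover counting error only.

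**Figure D1:**
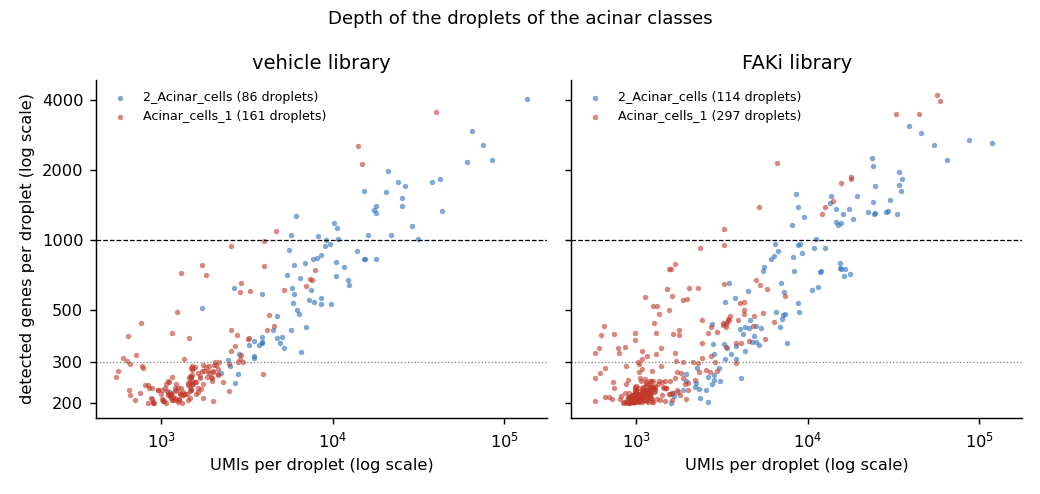
Detected genes (vertical, log scale) against UMIs (horizontal, log scale) for each droplet of Acinar_cells_1 (red) and 2_Acinar_cells (blue) in the vehicle library (left) and the FAKi library (right), with lines at 300 and 1000 genes. Most red points lie under 300 genes, and 4 vehicle and 13 FAKi points lie at or above 1000.

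After each droplet was thinned to 500 UMIs, the median droplet of the class had 118 genes in vehicle and 124 in FAKi. The other acinar class had fewer, at 97 and 92. The main β-cell cluster had 176 and 172, and the endothelial and immune droplets had 364 and 372. Within the class the make-up of the median droplet moved with depth. In vehicle droplets under 1000 UMIs, acinar genes took 26.9% of UMIs and mitochondrial genes 5.60%, against 65.7% and 1.91% in droplets of 2000 UMIs or more. The FAKi droplets ran from 40.0% to 53.5% for acinar genes and from 5.26% to 3.25% for mitochondrial genes across the same limits. Endocrine genes took a median of 10.3% in droplets of 2000 UMIs or more against 20.1% under 1000 UMIs in vehicle, and 15.4% against 28.7% in FAKi. The pooled level did not follow this order. Ins2 stood at 103583 and 173097 CPM over all droplets of the class and at 77345 and 113715 CPM in those under 1000 genes, so the few droplets of 1000 genes or more raised it.

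Genes outside the acinar and endocrine lists made up 28.6% of the UMIs of the class in vehicle and 28.9% in FAKi. That was a median of 406 and 359 UMIs per droplet. In 2_Acinar_cells the same genes made up 19.4% and 19.9%, but with a median of 1753 and 1652.5 UMIs. A larger share of a much smaller total therefore lay behind each housekeeping, nuclear or mitochondrial value of the class. Because the deposited clusters were drawn on these same droplets and genes, the differences between the classes are given as descriptions, with no test.

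Transcripts of cytosolic housekeeping genes made up 1.23% of UMIs in vehicle and 1.18% in FAKi, with a median droplet at 1.18% and 1.13%. The middle droplets ranged from 0.965% to 1.56% and from 0.870% to 1.40% (quartiles). Single droplets ran from 0.604% to 9.91% in vehicle and from 0.282% to 10.2% in FAKi. In 2_Acinar_cells it was 0.891% and 0.847%. Among genes with 20 or more UMIs over both classes, 17 of 35 housekeeping genes were at least 2-fold higher in Acinar_cells_1 in vehicle and 16 of 37 in FAKi, and none was 2-fold lower. Over all genes tested, 33.3% were 2-fold higher and 4.23% were 2-fold lower in vehicle, and 36.9% and 3.29% in FAKi. The median log2 ratio of the housekeeping list was 1.00 and 0.82, beside 0.64 and 0.73 over all genes tested.

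The genes of the list did not move alike. Tpt1, which encodes the translationally controlled tumor protein, stood at 2896 and 2402 CPM in the class, with a median of 5 and 3 UMIs. It was slightly lower than in 2_Acinar_cells, by a ratio of 0.928 (0.866 to 0.994) in vehicle and 0.793 (0.750 to 0.837) in FAKi. Ubb, a polyubiquitin gene, stood at 498.7 and 760.8 CPM against 83.0 and 136.6 in 2_Acinar_cells. Its ratio was 6.01 (4.70 to 7.71) and 5.57 (4.74 to 6.56), and 1 droplet held 25.8% of its UMIs in FAKi. The median was 1 UMI in both libraries. Tmsb4x, which encodes the actin-binding peptide thymosin β4, stood at 597.9 and 402.8 CPM, 5.10-fold (4.12 to 6.33) and 3.45-fold (2.85 to 4.18) the level in 2_Acinar_cells. Tmsb4x is abundant in other cells of the preparation, with 10606 and 9426 CPM in the endothelial and immune droplets. The part of those cells in its ratio was not tested. Actb, cytoplasmic actin, stood at 442 and 377 CPM against 221 and 279 in 2_Acinar_cells (a log2 ratio of −0.11 in FAKi when scaled to UMIs outside the acinar and endocrine lists), and 6000 and 4433 CPM in the endothelial and immune droplets. The ferritin genes were higher in the class in both libraries. Fth1 stood at 903.9 and 775.7 CPM against 551.8 and 453.1, and Ftl1 at 629.1 and 804.3 CPM against 299.6 and 364.8. Among the glycolytic genes, Aldoa had a ratio of 2.61 and 3.96.

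Ribosomal protein genes took 4.20% of UMIs in vehicle and 3.58% in FAKi (median droplet 3.99% and 3.56%), against 4.49% and 3.83% in 2_Acinar_cells. Of 76 genes, none was 2-fold higher or lower in vehicle and 1 was 2-fold higher in FAKi. The median log2 ratio was −0.07 and −0.06, below the 0.64 and 0.73 of all genes tested. With each droplet weighted equally the median was 0.20 and 0.31, and the median of all genes with a UMI 0.51 and 0.74. Scaled to the UMIs outside the acinar and endocrine lists it was −0.62 and −0.60, and that of all genes 0.31 and 0.45. The list thus stood below all genes under both, while the sign of its own median depended on the scaling. Single genes ran from 0.542 (Rpl5) to 1.58 (Rps27) in vehicle and from 0.564 (Rpl23a) to 2.05 (Rps27) in FAKi.

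Mitochondrially encoded transcripts took a larger share of the class than of 2_Acinar_cells, pooled and in the median droplet. They made up 3.15% of UMIs in vehicle and 3.23% in FAKi, with a median droplet at 4.03% and 4.57%. In 2_Acinar_cells they made up 0.984% and 0.770%, with a median of 1.04% and 0.855%. Of 12 mitochondrial genes, 9 were at least 2-fold higher in the class in vehicle and 12 in FAKi, with a median log2 ratio of 1.53 and 1.98. The exception in vehicle to the higher direction was mt-Atp8, with 7 UMIs in the class and a ratio of 0.775 (0.289 to 1.78). The median stayed above 0 under each of the 9 alternatives tried, at 0.87 to 1.53 in vehicle and 1.43 to 1.98 in FAKi.

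mt-Atp6, a subunit of ATP synthase, stood at 6920 and 7571 CPM, with a median of 11 and 15 UMIs per droplet. In 2_Acinar_cells it stood at 1852 and 1650 CPM, a ratio of 3.74 (3.53 to 3.96) in vehicle and 4.59 (4.37 to 4.81) in FAKi. The cytochrome c oxidase subunits gave like ratios. They were 2.97 and 3.93 for mt-Co3, 3.34 and 4.48 for mt-Co2, and 3.18 (2.96 to 3.41) and 3.98 (3.72 to 4.25) for mt-Co1. Among 500 thinned UMIs, mt-Co1 was found in 82.6% and 85.9% of droplets of the class, in 44.2% and 40.4% of 2_Acinar_cells, and in 93.3% and 91.7% of the endothelial and immune droplets. The share was lower in the deep droplets of the class. Droplets under 1000 genes had 3.28% and 4.35% mitochondrial UMIs, and droplets of 1000 genes or more had 2.68% and 1.57%. Across droplets, the Spearman correlation between total UMIs and the mitochondrial percent was −0.46 over 161 vehicle droplets and −0.33 over 297 FAKi droplets. Since total UMIs are the denominator of the percent, the pair share a measure. The deposited droplets had passed the authors' limit of 8% mitochondrial counts, so droplets above it are not in these values.

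Nuclear-encoded genes of oxidative phosphorylation differed less than the mitochondrial ones. They made up 0.446% and 0.463% of UMIs (median 0.395% and 0.457%), against 0.307% and 0.346% in 2_Acinar_cells. Of 40 genes, 4 were 2-fold higher in vehicle and 3 in FAKi, below the share of all genes, with a median log2 ratio of 0.56 and 0.53. In FAKi the median was −0.01 with the scaling to UMIs outside the lists. Cox8a had a ratio of 2.38 and 2.88, and Uqcrb of 2.20 and 1.93.

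Nuclear long noncoding RNAs gave pooled values that the median droplet did not share. The list made up 0.399% of UMIs in vehicle and 0.211% in FAKi, while the median droplet held 0.0580% and 0.0950%. It was at 0 in 64 of 161 and 81 of 297 droplets, and 1 droplet held 41.2% and 21.8% of the list's UMIs. Malat1, the main member, stood at 3137 and 1305 CPM but had a median of 0 and 1 UMI. It was found in 49.7% and 60.3% of droplets. The leading droplet held 549 of its UMIs in vehicle, or 49.6%, and 281 in FAKi, or 29.3%. The endothelial and immune droplets had a median of 88 Malat1 UMIs in both libraries. Among 500 thinned UMIs, Malat1 was found in 21.1% (15.1 to 28.2) and 32.0% (26.7 to 37.6) of droplets of the class. The same share was 12.8% and 26.3% in 2_Acinar_cells and 92.9% and 84.2% in the endothelial and immune droplets. In both acinar classes Malat1 was thus found in fewer thinned droplets than in the endothelial and immune ones, while acinar genes took 54.4% and 43.3% of the UMIs of the class and 79.7% and 78.8% of 2_Acinar_cells. Neat1 stood at 138.8 and 137.5 CPM, with 1 droplet at 35.6% of its UMIs in FAKi. The imprinted Meg3 stood at 209.7 and 251.8 CPM against 48.1 and 61.0 in 2_Acinar_cells, but it was found in 9.32% and 22.2% of droplets, and 1 droplet held 29.7% of its UMIs in vehicle. Under 1000 genes it stood at 96.7 and 230.8 CPM.

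To set the classes side by side without the listed enzyme and hormone transcripts, shares were taken of UMIs outside the acinar and endocrine lists. The trypsin-like gene 2210010C04Rik is not on the acinar list and stayed in. It gave 60054 of 250016 such UMIs in 2_Acinar_cells in vehicle and 76725 of 300168 in FAKi. In the class it gave 11650 of 100809 and 19618 of 212718. Its part in the differences below was not tested. On this scale the median droplet of the class held 13.1% and 14.5% mitochondrial UMIs. The main β-cell cluster had 11.0% and 10.6%, the endothelial and immune droplets 5.03% and 4.45%, and 2_Acinar_cells 4.88% and 3.96%. Nuclear long noncoding RNAs took a median of 0.234% and 0.313% in the class and 0.174% and 0.195% in 2_Acinar_cells. They took 2.71% and 2.93% in the main β-cell cluster, and 1.89% and 1.85% in the endothelial and immune droplets. The class was therefore near the β-cell cluster in its mitochondrial share and near the other acinar class in its nuclear RNA share. Ribosomal protein transcripts took 15.5% and 11.8%, lower than the 19.3% and 16.7% of 2_Acinar_cells, and housekeeping transcripts took 4.59% and 3.76%, close to its 4.48% and 3.81%.

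**Figure D2:**
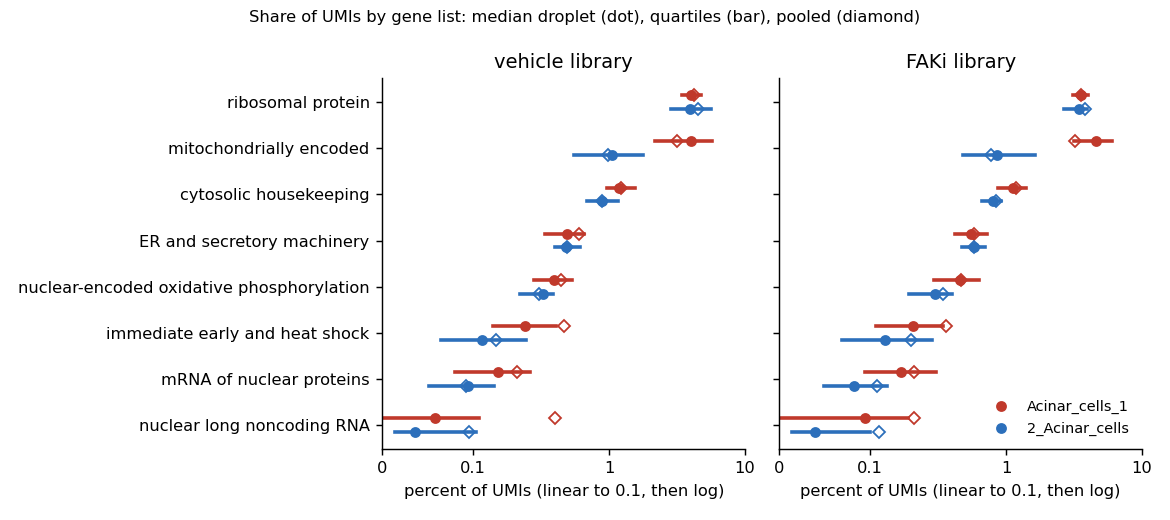
Share of UMIs (percent, horizontal, linear to 0.1 and log above) in each gene list (rows) for Acinar_cells_1 (red) and 2_Acinar_cells (blue), in the vehicle library (left) and the FAKi library (right). Dots are median droplets, bars quartiles and diamonds pooled values. The mitochondrial list has a median of 4.03% and 4.57% in Acinar_cells_1 against 1.04% and 0.855% in 2_Acinar_cells, and the nuclear noncoding list has a pooled value above its median droplet.

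Among mRNAs of nuclear proteins (splicing factors, histones and helicases), 12 of 24 were 2-fold higher in the class in each library, with a median log2 ratio of 1.08 in vehicle and 1.02 in FAKi. Over all genes tested, 33.3% and 36.9% were 2-fold higher, with medians of 0.64 and 0.73. Pooled, they made up 0.211% and 0.209% of UMIs, with a median droplet at 0.153% and 0.170%. The histone variant gene H3f3b stood at 294.7 and 235.4 CPM against 129.6 and 136.6, and the splicing factor gene Srsf7 had a ratio of 3.65 and 3.34, with 1 droplet at 22.9% of its UMIs in FAKi. Ddx5, an RNA helicase gene, stood at 257.9 and 304.8 CPM.

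Immediate early and heat shock genes, which many stimuli induce within minutes, took 0.469% and 0.361% of UMIs, with a median droplet at 0.239% and 0.209%. In 2_Acinar_cells they took 0.149% and 0.200%. Of 23 genes, 19 were 2-fold higher in vehicle but 8 in FAKi, where 1 was 2-fold lower, and the median log2 ratio was 1.64 and 0.77. Against the 33.3% and 36.9% of all genes that were 2-fold higher and their medians of 0.64 and 0.73, the list stood above all genes in vehicle and near them in FAKi. Fos stood at 665.9 and 538.9 CPM against 261.5 and 368.2 in 2_Acinar_cells, and at 1853 and 1936 CPM in the endothelial and immune droplets. Jun stood at 518.6 and 417.8 CPM against 152.9 and 252.7, with 1 droplet at 25.1% of its UMIs in vehicle. The heat shock gene Dnajb1 had a ratio of 9.60 (6.09 to 15.6) and 4.41 (3.33 to 5.89), and 1 droplet held 45.1% and 20.1% of its UMIs. Klf6 went the other way in FAKi, with a ratio of 0.323 (0.209 to 0.483) against 1.56 (0.958 to 2.49) in vehicle. A single droplet of 2_Acinar_cells held 43.8% of its UMIs in FAKi, and 1 of the class held 51.9% in vehicle.

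Genes of the endoplasmic reticulum and secretory machinery took 0.605% and 0.581% of UMIs (median droplet 0.491% and 0.550%), close to the 0.492% and 0.586% of 2_Acinar_cells. Of 40 genes, 11 were 2-fold higher in vehicle and 6 in FAKi, where 1 was 2-fold lower. The median log2 ratio was 0.58 and 0.30. Both the shares 2-fold higher and the medians were below those of all genes, which were 33.3% and 36.9%, and 0.64 and 0.73. The median changed sign to −0.13 in vehicle with thinned counts and to −0.24 in FAKi with the scaling to UMIs outside the lists. Single members differed in direction. Pdia2, a pancreatic protein disulfide isomerase, stood at 561.1 and 676.4 CPM against 828.1 and 984.4. Erp27, a redox-inactive member of the same family, had a ratio of 0.593 and 0.480. Pdia3, found in all tissues, had a ratio of 4.02 and 2.82. Hspa5, the chaperone BiP, stood at 473.2 and 393.3 CPM against 237.5 and 349.6, and 1 droplet held 34.1% of its UMIs in vehicle.

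**Figure D3:**
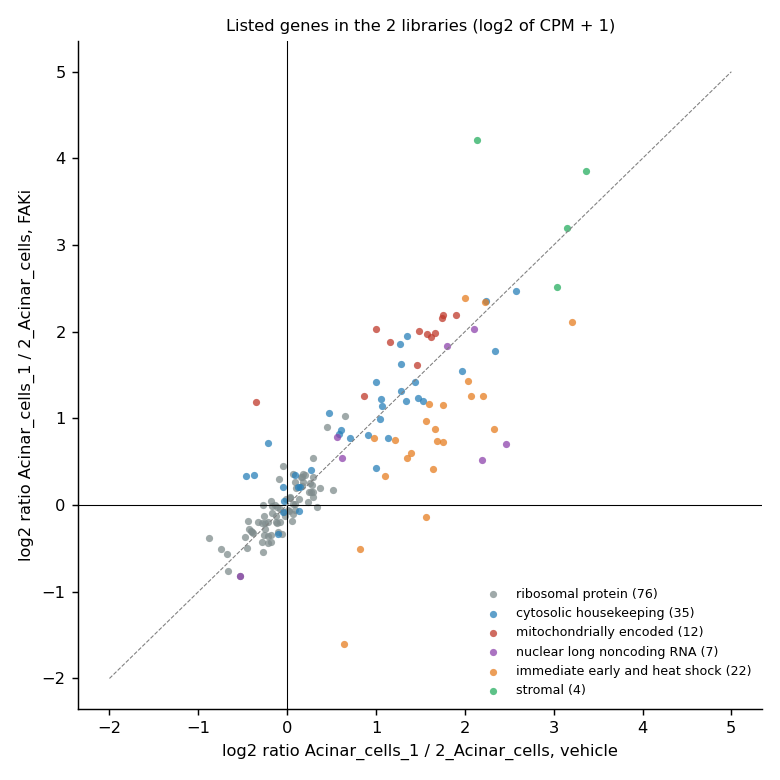
Log2 ratio of pooled CPM between Acinar_cells_1 and 2_Acinar_cells in the FAKi library (vertical) against the vehicle library (horizontal), with 1 point per listed gene of 20 or more UMIs over both classes in each library, coloured by list, and a dashed line of equal ratios. Ribosomal genes gather around 0 on both axes, and the mitochondrial genes lie above 0 in FAKi and, except for mt-Atp8, in vehicle.

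Islet endocrine genes took 17.1% of the UMIs of the class in vehicle and 27.7% in FAKi. The genes of most non-endocrine cell types were far below this. Duct genes gave 1260 UMIs in vehicle and 2269 in FAKi over all droplets, most of them of the trefoil factor gene Tff2. Stromal genes gave 210 and 200, and macrophage and antigen presentation genes 126 and 116, from a total that was larger in FAKi. Endothelial genes gave 29 and 89, T- and B-cell genes 26 and 12, Schwann-cell genes 5 and 6, and cell cycle genes 8 and 29. The endothelial markers Pecam1 and Cdh5 had 3 and 1 UMIs in vehicle and 4 and 2 in FAKi. The T-cell genes Cd3d, Cd3e and Trac, the B-cell gene Ms4a1 and the macrophage gene Cd68 had none in either library. The 26 and 12 T- and B-cell UMIs therefore came from other members of that list. Other members also held most of the 29 and 89 endothelial UMIs, and those besides Cd68 all of the 126 and 116 macrophage ones. The low counts of the named genes thus do not show that transcripts of these cell types were absent. The duct markers Krt19 and Sox9 had 5 and 1 UMIs in vehicle and 8 and 10 in FAKi, and Cftr had none. The collagen gene Col1a1 had 0 and 3 UMIs, and Col3a1 had 9 and 1.

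Most genes of the stromal, macrophage and endothelial lists were nonetheless above their level in 2_Acinar_cells. So were most genes of all kinds, at 8127 of 11737 genes with a UMI in vehicle and 9690 of 12535 in FAKi. Of the genes with a UMI, 16 of 19 stromal genes were higher in vehicle and 13 of 17 in FAKi, 11 of 13 macrophage and antigen presentation genes in both libraries, and 10 of 12 and 13 of 14 endothelial genes. The stromal share higher in FAKi was near that of all genes. The median log2 ratio was 2.45 and 2.35 for stromal, 1.94 and 1.75 for macrophage and 1.31 and 2.05 for endothelial genes. Over all genes with a UMI it was 0.81 and 0.82. Of the T- and B-cell genes with a UMI, 4 of 7 and 3 of 3 were higher. Of the Schwann-cell genes 2 of 3 and 1 of 3 were, and of the cell cycle genes 2 of 5 and 5 of 14. Igfbp7, which stromal and endothelial cells secrete, had 49 and 73 UMIs, or 138.8 and 99.3 CPM. It was 9.42-fold (5.44 to 16.9) and 9.98-fold (5.68 to 18.7) above 2_Acinar_cells and stood at 4584 and 5540 CPM in the endothelial and immune droplets. It was found in 18.6% and 14.8% of droplets. Cd74, the invariant chain of MHC class II, had 45 and 19 UMIs, a ratio of 11.0 (5.99 to 21.2) in vehicle and 5.57 (2.24 to 15.7) in FAKi, where 1 droplet held 52.6% of its UMIs. The pericyte gene Rgs5 had 23 and 31 UMIs, of which 1 droplet held 39.1% and 48.4%. Of the duct genes with a UMI, 14 of 20 were higher in vehicle and 15 of 21 in FAKi. Their median log2 ratio was 0.48 and 0.93. Among those with 20 or more UMIs, 2 of 11 were 2-fold higher and 1 lower in vehicle. In FAKi 5 of 13 were 2-fold higher and 1 lower. The shares 2-fold higher were below the 33.3% of all genes in vehicle and near the 36.9% in FAKi. The main member of the duct list by level, Tff2, stood at 2834 and 2350 of the list's 3570 and 3088 CPM in the class. It stood at 4666 and 4774 CPM in 2_Acinar_cells, so the ratio of the class was 0.607 and 0.492. A single droplet of the class held 22.4% of the Tff2 UMIs in vehicle.

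Hemoglobin transcripts were unevenly spread. The red cell list took 0.680% of UMIs in vehicle and 1.02% in FAKi, but its median was 0 in both libraries, and 83 and 227 droplets held none. Hbb-bs, an adult β-globin gene, stood at 4562 and 6413 CPM. It was found in 32.9% and 14.5% of droplets, and a single droplet held 96.1% and 52.3% of its UMIs. Among 500 thinned UMIs it was found in 14.9% and 7.07% of droplets of the class, in 1.16% and 0.877% of 2_Acinar_cells and in 3.67% and 2.49% of the endothelial and immune droplets. Alas2, a heme synthesis enzyme of red cell precursors, had 3 and 20 UMIs.

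A small number of droplets in the class were unlike the rest. In vehicle, 1 droplet of 3939 UMIs was 58.2% red cell transcripts with 25.6% acinar, and in FAKi 2 droplets of 5634 and 6316 UMIs were 63.3% and 61.5% red cell transcripts. Nuclear noncoding RNA exceeded 10% in 2 vehicle droplets and 1 FAKi droplet. The leading vehicle one had 1835 UMIs from 710 genes, 31.7% of them nuclear noncoding RNA and 6.49% acinar. The FAKi one had 1690 UMIs from 789 genes, with 281 Malat1 UMIs and 5.56% acinar. The other vehicle one also held 12.9% immediate early and heat shock transcripts. A FAKi droplet of 607 UMIs held 10.2% housekeeping transcripts. Ribosomal protein transcripts exceeded 10% in 12 vehicle and 8 FAKi droplets, with highest shares of 17.4% and 16.9%, and in none of 2_Acinar_cells.

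Genes outside the acinar and endocrine lists were then ranked by the mean log2 ratio of the class to 2_Acinar_cells over both libraries. The 197 candidates had 100 or more UMIs over both classes in each library, were found in at least 5% of droplets of the class, differed in the same direction in both libraries and had no droplet with over 20% of a class's UMIs. The 10 highest were AY036118, Tmsb4x, 7 mitochondrial genes and Maged1, which stood at 164 and 173 CPM against 47.3 and 48.4, a ratio of 3.47 and 3.57. AY036118 stood at 320.2 and 661.4 CPM against 42.7 and 145.9, a ratio of 7.50 (5.39 to 10.6) and 4.53 (3.86 to 5.34). It lies on chromosome 17 of GRCm38 at 39847113 to 39848035, inside the span of Gm42418 (39846958 to 39848788) on the other strand. Gm42418 is known to take reads of ribosomal RNA. Gm42418 stood at 18266 and 26779 CPM with a median of 32 and 45 UMIs, against 7123.5 and 10370 CPM in 2_Acinar_cells. Both values lay mainly in the shallow droplets. Under 1000 genes Gm42418 stood at 22081 and 42000 CPM, and at 1000 genes or more at 3813 and 4376.

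The lowest in the same ranking were led by 1810028F09Rik, with a ratio of 0.364 (0.255 to 0.507) in vehicle and 0.516 in FAKi. Arhgdig had 0.473 and 0.483, and Tmed11, of the family of cargo receptors between the endoplasmic reticulum and the Golgi, had 0.522 and 0.524. The ribosome-binding protein gene Rrbp1 had 0.678 and 0.534, and with thinned droplets its log2 ratio in vehicle turned to 2.39. 2210010C04Rik, a trypsin-like gene outside the acinar list, stood at 33012 and 26699 CPM with a ratio of 0.708 and 0.525. The others were Serinc3, Vtn, Pabpc4, Rps15 and Asns, the asparagine synthetase gene. With thinned droplets the log2 ratio of Rps15 in FAKi turned to 0.047. Pabpc4 had 0.589 (0.317 to 1.02) in vehicle and Asns 0.691 (0.411 to 1.11), and both intervals include 1.

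Between the treatments, the medians of the housekeeping, mitochondrial and oxidative phosphorylation lists were close to that of all genes in the class, and those of the ribosomal, immediate early and stromal lists were lower. Over 2039 genes tested in the class, 1139 were higher in FAKi, 7.65% were 2-fold higher and 3.14% were 2-fold lower. Their median log2 ratio was 0.087. In 2_Acinar_cells 1567 of 2648 genes tested were higher, with a median of 0.10. In the endothelial and immune droplets 4936 of 12536 were, with a median of −0.09. In the class the housekeeping list had a median of 0.065, with 22 of 36 genes higher, 2 of them 2-fold, and 1 2-fold lower. The mitochondrial list had 0.070, with 7 of 12 genes higher and none past 2-fold. It was 0.41 in droplets under 1000 genes, where the median of all genes with a UMI was 0.28. In 2_Acinar_cells it was −0.43, with 0 of 12 higher, and in the endothelial and immune droplets −0.32, with 1 of 13 higher. Oxidative phosphorylation genes had 0.012, with 22 of 40 higher.

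Ribosomal protein genes were lower in FAKi in 65 of 76 cases, with a median of −0.24 and none past 2-fold. They were lower in the endothelial and immune droplets too, where the median was −0.50 and 1 of 76 was higher. In 2_Acinar_cells their median was −0.22, with 6 of 76 higher. The make-up of the endothelial and immune droplets also differed between the libraries. T- and B-cell genes stood at 4629 CPM there in vehicle and 238 in FAKi. The part of this in the ratios of those droplets was not tested. Immediate early and heat shock genes had a median of −0.34, with 5 of 22 higher. Their median was −0.35 in the endothelial and immune droplets, but 0.50 in 2_Acinar_cells, where 18 of 24 were higher. The nuclear noncoding RNAs had a median of −0.32 over 9 genes and Malat1 had a pooled ratio of 0.416 (0.381 to 0.454), but the median droplet had 1 UMI in FAKi and 0 in vehicle. The direction of that list turned to 0.34 in droplets under 5% mitochondrial counts. The stromal list stood at 595 CPM in vehicle and 272 in FAKi, with 1 of 17 genes with a UMI higher and a median of −1.61. Of the 6 with 20 or more UMIs none was higher and 2 were 2-fold lower, with a median of −0.68. In 2_Acinar_cells 1 of 17 was higher, with a median of −0.89. In the endothelial and immune droplets 3 of 20 were higher, with a median of −0.53. Over all genes with a UMI, 6386 of 12195 were higher in the class, at a median of 0.15. In 2_Acinar_cells it was 6369 of 12014 at 0.07, and in the endothelial and immune droplets 6935 of 17844 at −0.12. Macrophage and antigen presentation genes had no common direction, with 6 higher and 6 lower among the 12 with a UMI and a median of 0.11. Of the 5 with 20 or more UMIs, 4 were 2-fold lower, with a median of −2.57 that was −1.78 over 2 genes in 2_Acinar_cells and 0.14 over 15 genes in the endothelial and immune droplets. The T- and B-cell list had a median of −3.48 in the endothelial and immune droplets, with all 15 genes 2-fold lower in FAKi, and its part in the result for the class was not tested. Cd74 stood at 127.5 CPM in vehicle and 25.9 in FAKi, a ratio of 0.203 (0.112 to 0.354), and H2-Eb1 had 19 and 3 UMIs. Endocrine genes had 0.42, with 51 of 61 higher, and in the endothelial and immune droplets 0.74.

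**Figure D4:**
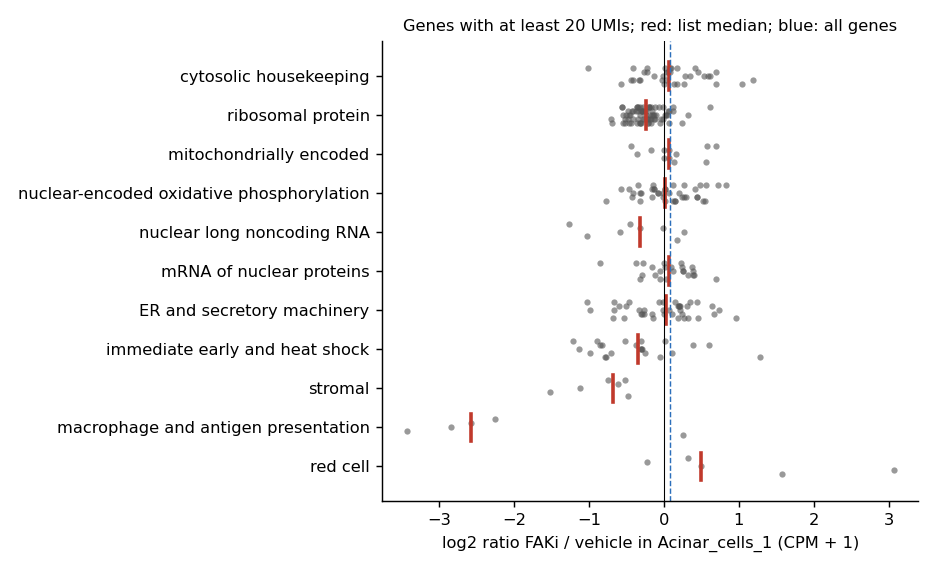
Log2 ratio of FAKi to vehicle pooled CPM in Acinar_cells_1 (horizontal) by list (rows), with 1 point per gene of 20 or more UMIs over both libraries, a red bar at the list median and a dashed blue line at the median of all genes tested. Ribosomal genes lie mostly below 0 with a median of −0.24, and the mitochondrial and housekeeping medians are 0.070 and 0.065.

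Single genes were ranked for the same comparison over 210 candidates, which met the same limits and moved in the same direction in the mean over droplets. AY036118 was highest, with 2.07 (1.68 to 2.56), and its log2 ratio was 1.37 in the endothelial and immune droplets and 1.75 in 2_Acinar_cells, so it was higher in FAKi in those droplets as well. Bex2 had 2.04 (1.24 to 3.51), and Cltrn, which encodes collectrin, had 1.84 (1.26 to 2.75). The imprinted gene Peg3 had 1.76, the chaperone gene Dnaja1 1.77, Aldoa 1.63, mt-Nd5 1.62 (1.17 to 2.29) and Park7 1.61. In the endothelial and immune droplets the log2 ratio was 1.26 for Bex2, 0.87 for Peg3 and 0.63 for Cltrn, between 0.076 and 0.29 for mt-Nd5, Park7 and Dnaja1, and −0.29 for Aldoa. In 2_Acinar_cells it was 1.16 for Dnaja1 and 0.67 for Bex2, and between −0.22 and 0.17 for Peg3, Aldoa, Cltrn, mt-Nd5 and Park7.

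At the low end, Gm10076 had 0.510 (0.358 to 0.727) and a log2 ratio of −1.18 in the endothelial and immune droplets. The stress-induced transcription factor gene Atf3 had 0.562, and Junb, an AP-1 transcription factor gene, had 0.614 (0.482 to 0.785). Atp5o, a subunit of ATP synthase, had 0.580. The ribosomal genes Rpl23a and Rps28 had 0.610 and 0.617, the translation factor gene Eif4a2 0.626 (a log2 ratio of 0.36 with thinned droplets), the selenoprotein gene Msrb1 0.623 and the peroxiredoxin gene Prdx4 0.671. Tmsb4x had 0.674 (0.563 to 0.808). In the endothelial and immune droplets the log2 ratios were −0.82 for Rps28, −0.81 for Junb, −0.58 for Rpl23a and −0.53 for Atf3, and between −0.20 and 0.21 for Eif4a2, Tmsb4x, Atp5o, Msrb1 and Prdx4. In 2_Acinar_cells they were between −0.66 and −0.30 for Gm10076, Rps28, Rpl23a and Msrb1, −0.099 for Junb and −0.0053 for Tmsb4x, and between 0.22 and 0.65 for Atp5o, Eif4a2, Atf3 and Prdx4. With 1 library per treatment, none of these ratios can be told apart from a difference between the libraries.

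Of the hormone transcripts other than insulin, that of Gcg, the glucagon gene, was found in nearly every droplet of the class. It had a median of 5 UMIs in vehicle and 6 in FAKi and was found in 97.5% and 99.3% of droplets. Ppy was found in 79.5% and 85.9%, Pyy in 73.9% and 60.6%, and Sst in 31.7% and 68.4%. Ins2 was found in every droplet of the class. Per 1000 Ins2 UMIs, the class held 26.3 (24.7 to 28.1) Gcg UMIs in vehicle and 52.7 (51.4 to 54.0) in FAKi. Droplets under 1000 genes held 41.4 and 102.0. The medians were 5 Gcg and 129 Ins2 UMIs in vehicle and 6 and 175 in FAKi, which do not show this rise. Per 1000 Ins2 UMIs, all droplets of the libraries held 82.1 and 114.9 Gcg UMIs, and the main β-cell cluster held 0.221 and 0.494. The other acinar class, 2_Acinar_cells, held 104.5 and 160.0. The hormone mixture of the class thus lay between that of the β cells and that of the whole library, and nearer to the library in its shallow droplets.

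Sst and Ppy gave the same order, and Npy did not. Npy had no UMI in the class in vehicle and 0.134 per 1000 Ins2 UMIs in FAKi, below the main β-cell cluster at 0.239 and 0.220. Sst, the somatostatin gene, stood at 12.1 and 14.5 per 1000 Ins2 UMIs in the class, 0.0844 and 0.179 in the main β-cell cluster and 43.7 and 43.7 in all droplets. A single droplet held 77.7% of the Sst UMIs of the class in vehicle. Ppy, pancreatic polypeptide, stood at 13.9 and 16.1 in the class, 0.143 and 0.193 in the β-cell cluster and 66.8 and 57.4 in all droplets, and 1 droplet held 27.6% of its UMIs in the class in FAKi. Genes that β cells themselves express with insulin kept closer ratios. Ins1 stood at 415.6 and 352.6 in the class against 404.1 and 391.4 in the β-cell cluster. Iapp, islet amyloid polypeptide, stood at 102.2 and 102.2 against 86.9 and 99.8. In all droplets Ins1 stood at 398.5 and 382.7 and Iapp at 94.7 and 107.3. On these genes the β-cell cluster and the whole library were thus close. Endothelial and immune droplets, which do not make hormones, held 89.7 and 32.9 Gcg UMIs per 1000 Ins2 UMIs, with a median of 1 and 3 Gcg UMIs. Those under 1000 genes held 57.9 and 185.1, so the order of the libraries turned with depth. Endocrine genes took 7.78% and 18.2% of their pooled UMIs but 0.911% and 1.65% in the median droplet. The part of free RNA in the hormone transcripts of the class was not tested.

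**Figure D5:**
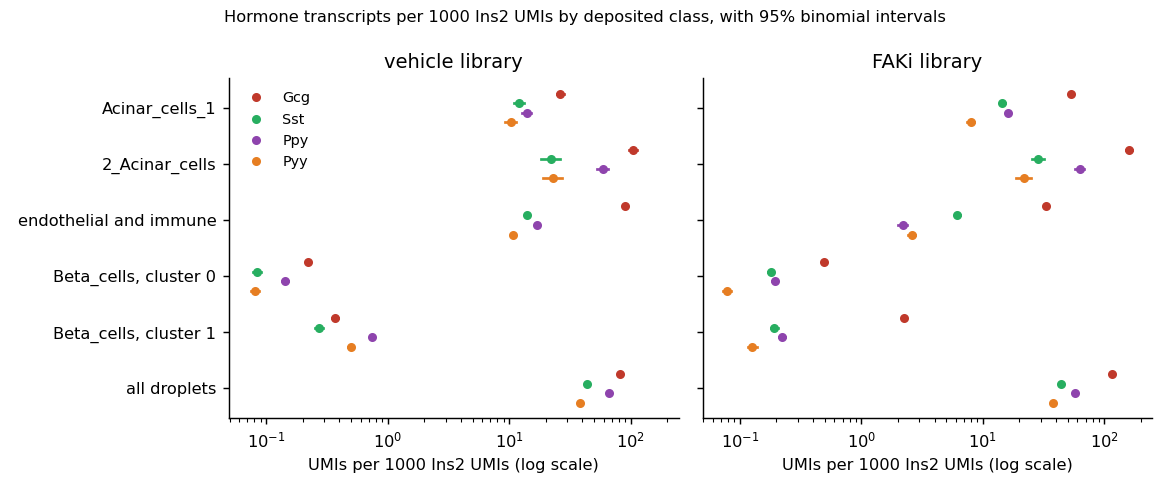
Gcg, Sst, Ppy and Pyy UMIs per 1000 Ins2 UMIs (log scale) in Acinar_cells_1, other deposited classes and all droplets, for the vehicle library (left) and the FAKi library (right), with exact 95% binomial intervals as bars. For Gcg, Acinar_cells_1 stands at 26.3 and 52.7, between the main β-cell cluster at 0.221 and 0.494 and all droplets at 82.1 and 114.9.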

How the data were processed

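Islet cells were profiled with droplet 3′ RNA sequencing (10x). The authors deposited a table of raw UMI counts, with 19945 genes and 6959 droplets, and a table of droplet annotations with the mitochondrial percent that the authors computed. Per the labels' processing notes, Cell Ranger, Seurat 3.1 and the mm10 build were used. The authors kept droplets under 8% mitochondrial counts and grouped them into 17 clusters and 12 classes, which were used as deposited. The 8 GEO samples are 4 lanes of each of 2 libraries, and droplets are not assigned to lanes, so each condition is 1 sample. For this reason no test was run, and groups were described.

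UMIs were summed per class and library and scaled to CPM. Intervals are exact 95% Poisson intervals (levels), conditional binomial intervals (ratios) and Clopper-Pearson intervals (shares). UMI intervals cover counting error only. Log2 ratios used a pseudocount of 1 CPM, and counts past 2-fold used genes with at least 20 UMIs. Droplets were also thinned to 500 UMIs. Doublets were called with scrublet (scanpy 1.11.5) and kept. Intervals used scipy 1.17.1, figures matplotlib 3.10.9 and sequence identity biopython 1.88, under python 3.11.15 with pandas 2.3.3 and numpy 2.4.6. The scripts were tested on simulated counts. Gene positions came from GENCODE annotation of GRCm38.

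Genes were named as the leading or defining members of 18 lists, and as the 10 highest and 10 lowest ratios among genes of at least 100 UMIs. The ranked genes, unlike the list members, had to be found in at least 5% of droplets, with no droplet holding over 20% of a group's UMIs. Of the genes so named, those with most UMIs or a clear role are described. A few genes that the rule names are not reported here. The members and lists were chosen with earlier results of these data known. Alternatives were equal weights for droplets, scaling to the UMIs outside the acinar and endocrine lists, droplets under 1000 genes, no doublets, droplets under 5% mitochondrial counts, thinning, pseudocounts of 0.1 and 10 CPM, and a minimum of 20 UMIs.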

Additional observations from a re-analysis of the deposited data

Results flagged for a closer look

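Of 248 listed genes with at least 100 UMIs over the acinar classes in both libraries, 6 had a ratio of Acinar_cells_1 to 2_Acinar_cells on opposite sides of 1 in the vehicle and FAKi libraries, with both intervals off 1. The difference between the libraries was not tested, since each condition is 1 library.

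Atf3 had a ratio of 1.77 (1.22 to 2.53) in vehicle and 0.701 (0.506 to 0.957) in FAKi. Herpud1, a gene of endoplasmic reticulum stress, had 1.41 (1.02 to 1.92) and 0.735 (0.558 to 0.960). For the respiratory chain and ATP synthase genes, Uqcrq had 1.31 (1.05 to 1.63) and 0.738 (0.619 to 0.877), and Atp5o had 1.40 (1.00 to 1.94) and 0.698 (0.517 to 0.932). Eef2, a translation elongation factor gene, went the other way with 0.722 (0.529 to 0.970) and 1.26 (1.01 to 1.57). Reg3b, a secreted lectin gene that acinar cells induce in injury, had 1.42 (1.11 to 1.80) and 0.228 (0.140 to 0.355), and 1 droplet held 67.6% of its UMIs in 2_Acinar_cells in vehicle.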

How the results depend on the processing

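Of 108 values of the housekeeping, ribosomal, mitochondrial and nuclear noncoding list medians under an alternative, 89 moved by less than the spread taken for each and 19 by more, and none of these 19 had its cause tested. With equal weights for droplets, the mitochondrial median of Acinar_cells_1 over 2_Acinar_cells was 1.27 in vehicle and 1.72 in FAKi, that of FAKi over vehicle 0.20, and the ribosomal median 0.20 and 0.31. Scaled to UMIs outside the acinar and endocrine lists, the mitochondrial median was 0.93 and 1.43 and the ribosomal median −0.62 and −0.60. This scaling moved the median of all genes from 0.81 to 0.31 in vehicle, from 0.82 to 0.45 in FAKi and from 0.15 to 0.13 for FAKi over vehicle. In droplets under 1000 genes, the mitochondrial median was 0.87 and 1.66, and 0.41 for FAKi over vehicle, while in FAKi the ribosomal median was 0.22 and the nuclear noncoding median 1.87. Under 5% mitochondrial counts the mitochondrial median was 1.26 and 1.67. With thinned droplets it was 1.80 in FAKi and 0.20 for FAKi over vehicle, and the ribosomal median in FAKi was 0.34. Among single genes, 7 of 1024 log2 values changed direction: Rrbp1 to 2.39 in vehicle and Rps15 to 0.047 in FAKi with thinned droplets, Actb to −0.11 and Eef1a1 to −0.34 in FAKi with the other scaling, and, for FAKi over vehicle, Hba-a1 to −0.15 with equal weights and −0.13 thinned, and Eif4a2 to 0.36 thinned. A thinned value of a gene with few UMIs rests on a handful of them. No paired analysis was possible because each condition is 1 library and no result comes from a test.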
